A study of Mus musculus with 3 samples.

Results

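The 7 genes Nos2, Arg1, Arg2, Ass1, Asl, Gch1 and Odc1 encode enzymes that use arginine, remake it, supply the cofactor for nitric oxide synthesis or start polyamine synthesis. They were taken by gene symbol from the transcript tables and joined by gene identifier to the gene tables, and they are 7 of 55536 annotated genes and of 22028 protein-coding genes. All of the data came from 1 group of 3 libraries. Primary bone-marrow-derived macrophages of C57BL/6J mice were first exposed to Lipid A, the part of bacterial lipopolysaccharide that Toll-like receptor 4 recognises, at 100 ng/ml over 12 hours. After a washout of 12 hours they met the same dose again, this time for 50 minutes, and RNA of the chromatin fraction was depleted of ribosomal RNA and sequenced. Per the labels these are biological replicates of separate biosamples, with 1 donor named for all 3, and they do not say whether animals or cultures differed, so the spread may be partly technical. Sex and age were not collected per the labels. No untreated or singly exposed cells were analysed here, and the values below describe levels, never a change on exposure.

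Nos2 makes nitric oxide and citrulline from arginine, and it needs tetrahydrobiopterin, whose synthesis starts at Gch1. Arginases hydrolyse arginine to ornithine and urea, Ass1 and Asl rebuild arginine from citrulline, and Odc1 turns ornithine into putrescine, the first polyamine. In macrophages Nos2 is a classical marker of activation by bacterial products and Arg1 of activation by interleukin-4, and both enzymes draw on the same arginine.

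Levels are given in TPM, an abundance per effective transcript length scaled to the same total in each library, from the deposited alignment-based gene tables unless the read-based tables are named. Detection required 1 TPM or more in all 3 libraries. Of the 7 genes, 5 were detected, where 39.2% of all protein-coding genes were. The median of the 7 mean levels was 8.82 TPM, beside 0.367 TPM over protein-coding genes. From high to low, the order was Gch1, Odc1, Asl, Nos2, Ass1, Arg2 and Arg1. In bulk RNA, fewer cells that express a gene and less of its RNA per cell cannot be told apart.

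The libraries summed to 13897176 (replicate 1), 19597343 (replicate 2) and 19348626 (replicate 3) expected counts, from starting amounts of 1 µg, 250 ng and 500 ng per the labels. Protein-coding genes held 27.6% to 29.6% of TPM in each library, and the long noncoding RNA Gm26917 took 10.8%, 18.2% and 20.1% of counts. The macrophage identity of the cells was checked on 8 markers (Adgre1, Csf1r, Cd68, Itgam, Lyz2, Fcgr1, Mertk and Msr1), and all 8 were detected, with a summed level of 1114 to 1357 TPM. No marker on the lists of neutrophils, dendritic cells, T and B cells, stromal and endothelial cells or hepatocytes was detected in every library of the alignment-based tables, and the highest summed level of any of these lists was 3.56 TPM. Of these markers, 4 passed in every library of the read-based tables: Cd3d at 12.5, 15.6 and 18.8 TPM, Cxcr2 at 3.89, 4.54 and 3.72, Pecam1 at 3.24, 9.51 and 11.0 and Zbtb46 at 1.40, 1.56 and 1.26. Their part in the read-based values of the 7 genes was not tested. Cd3d and Cxcr2, like the hepatocyte genes Alb, Cps1 and Otc, had 0 counts in each alignment-based library.

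**Figure D1:**
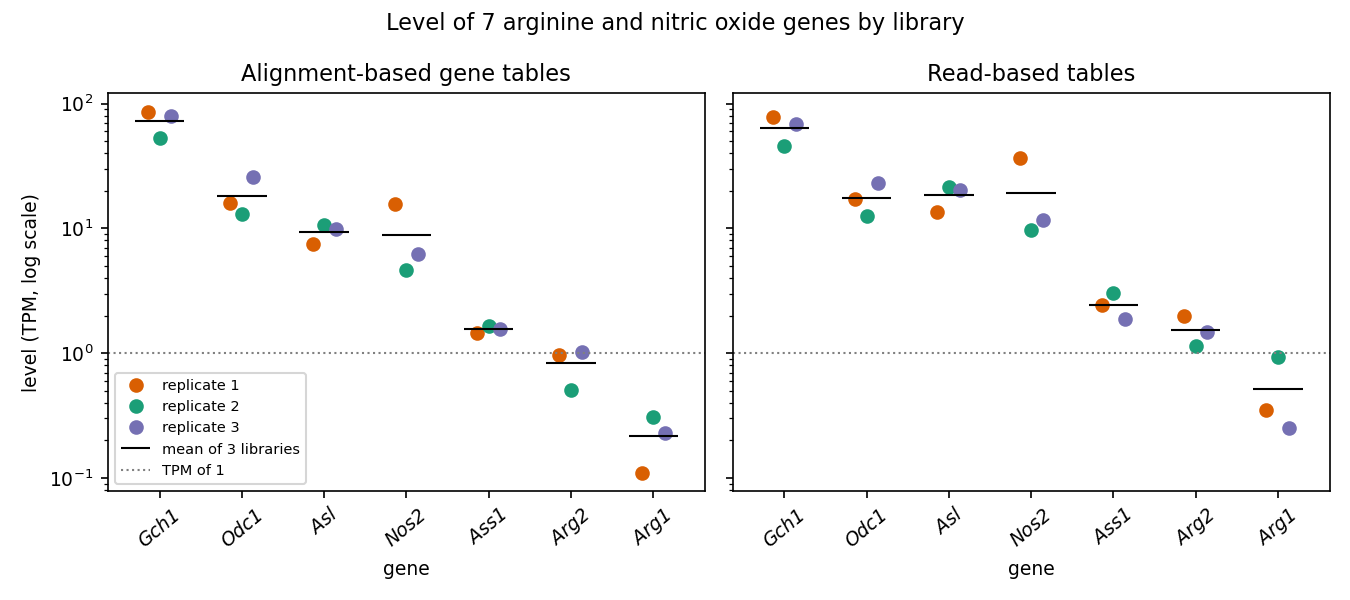
Level of each of the 7 genes in TPM (log axis) in the alignment-based tables on the left and the read-based tables on the right, with 1 point per library, a bar at the mean and a dotted line at a TPM of 1. Gch1 lies highest and Arg1 lowest in both, and Nos2 in replicate 1, at 15.6 TPM on the left and 36.5 on the right, lies apart from its values in replicates 2 and 3.

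Nos2 (ENSMUSG00000020826.8, mm10 chromosome 11, 78920787 to 78960254, plus strand) encodes inducible nitric oxide synthase. It stood at 15.6, 4.66 and 6.21 TPM in replicates 1, 2 and 3, a mean of 8.82 ± 5.91 (SD, n = 3), from 849, 331 and 388 expected counts. Replicate 1 was thus 3.34 times replicate 2, and the mean without replicate 1 was 5.44 TPM. The coefficient of variation of 67.0% was larger than that of 97.1% of the 9450 protein-coding genes whose mean was 1 TPM or more, whose median was 24.1%. On counts scaled by TMM or by DESeq2 size factors it was 76.6% and 75.5%. Replicate 1 also had the largest starting amount, the fewest counts and the lowest Gm26917 share, and their part in this difference was not tested.

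The transcripts of Nos2 were assigned differently by the deposited tables. In the alignment-based tables the 27-exon coding transcript Nos2-201 held 98.3% ± 2.98 of Nos2 TPM, and Nos2-203 had 0 counts in each library. The read-based tables gave Nos2 36.5, 9.71 and 11.6 TPM, a mean of 19.3 ± 15.0 and 2.19 times the alignment-based mean. There Nos2-201 stood at 9.79 ± 7.93 TPM, close to its alignment-based 8.71 ± 5.98, and the excess lay in Nos2-202, a 648-base transcript without a coding sequence, at 7.67 ± 6.28, and Nos2-203 at 1.83 ± 0.796. Both of these begin at first exons of their own and share later exons with Nos2-201. Replicate 1 was the highest of the 3 libraries for Nos2-201 in both kinds of table.

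**Figure D2:**
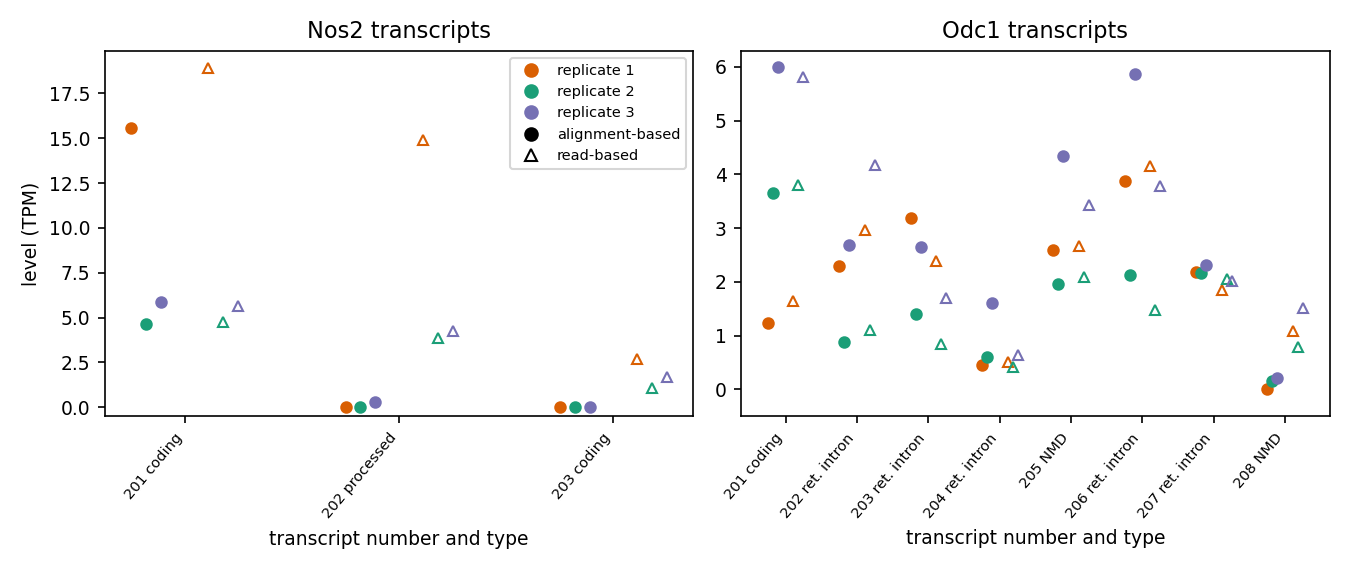
TPM of each annotated transcript of Nos2 (left) and Odc1 (right) in each library, with filled circles for the alignment-based and open triangles for the read-based tables. For Nos2 the triangles of transcript 202 reach 14.9 TPM where the circles are at or near 0, and for Odc1 the coding transcript 201 is lowest in replicate 1, at 1.24 TPM in the alignment-based tables.

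Gch1 (ENSMUSG00000037580.10, chromosome 14, 47153895 to 47189413, minus strand) encodes GTP cyclohydrolase 1, the first and rate-limiting enzyme of tetrahydrobiopterin synthesis. It was the highest of the 7, at 86.2, 52.6 and 78.8 TPM, a mean of 72.5 ± 17.7 (SD, n = 3), from 3559, 2805 and 3807 counts. Its lowest library lay above the highest library of each of the other 6 genes, and its mean exceeded 96.2% of protein-coding genes. In the read-based tables it stood at 64.2 ± 16.9 TPM.

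Most of the alignment-based Gch1 level was assigned to a transcript annotated without a coding sequence. The annotation holds 2 Gch1 transcripts: the 6-exon coding Gch1-201, and Gch1-202, a single stretch of 3508 bases annotated as retained intron (chromosome 14, 47158365 to 47161872). Of those bases, 99.1% are intron of Gch1-201. The stretch covers 2978 of the 7581 bases of the intron before exon 4, all 32 bases of exon 4 and 498 of the 1369 bases of the intron after it. Whether the reads assigned to Gch1-202 came from that transcript or from unspliced RNA of Gch1 was not tested. Gch1-202 held 51.9, 31.4 and 40.9 TPM against 34.3, 21.2 and 37.9 TPM for Gch1-201, so it was the higher in 3 of 3 libraries and took 57.3% ± 4.63 of Gch1 TPM. By counts it took 65.9%, 65.6% and 58.2%. In the read-based tables its TPM share was 56.8%, 52.5% and 48.0%, so there it was the higher in 2 of 3 libraries and Gch1-201 was in replicate 3. With coding transcripts alone Gch1 stood at 31.1 ± 8.78 TPM, and it was still the highest of the 7 genes.

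The sequence around exon 4 shows what tells the transcripts apart. Both lines below run 5′ to 3′ on the minus strand with the exon in capitals (chr14:47158863-47158894, all coding) and 40 bases of each transcript on either side in lower case, from the GENCODE M21 transcript sequences. In Gch1-201 the flanks are exons 3 and 5, whereas in Gch1-202 they are unspliced intron, which ends in ag before the exon and begins with gt after it.
Gch1-201: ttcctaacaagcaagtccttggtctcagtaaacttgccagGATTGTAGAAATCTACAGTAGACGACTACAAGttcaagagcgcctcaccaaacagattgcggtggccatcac
Gch1-202: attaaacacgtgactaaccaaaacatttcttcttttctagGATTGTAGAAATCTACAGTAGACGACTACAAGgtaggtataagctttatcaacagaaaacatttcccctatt

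**Figure D3:**
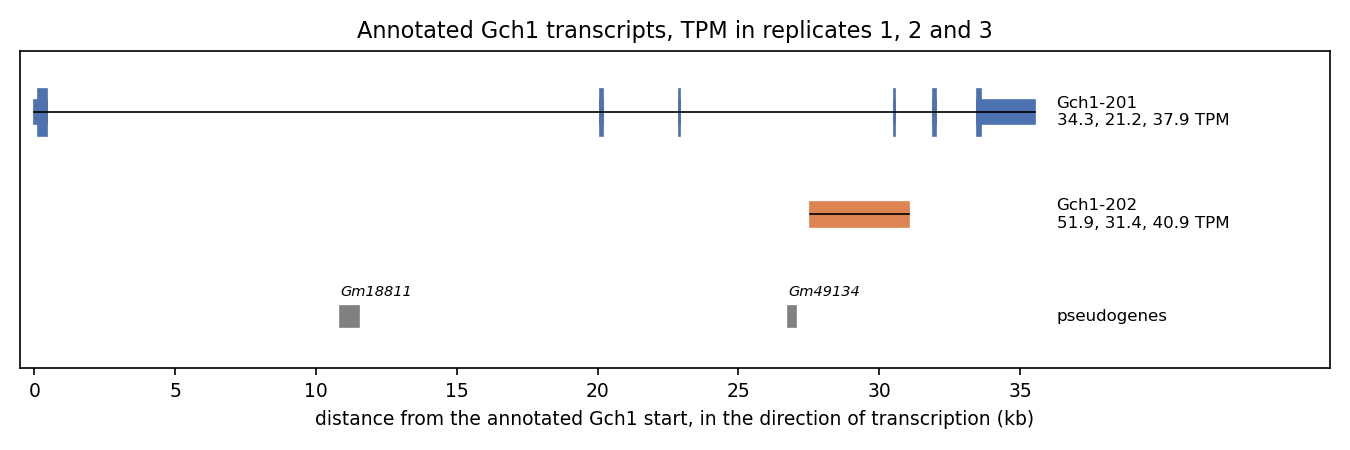
Annotated Gch1 transcripts drawn to scale against the distance in kb from the annotated start, with tall boxes for coding exon, low boxes for noncoding exon and grey boxes for the 2 pseudogenes annotated within Gch1 introns. Gch1-202 covers exon 4 and parts of its neighbouring introns, and its TPM of 51.9, 31.4 and 40.9 exceeds that of Gch1-201 in each library.

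Other annotated features inside Gch1 introns also had counts. The processed pseudogene Gm18811, on the strand of Gch1, stood at 37.8, 24.3 and 24.4 TPM, and Gm49134, on the opposite strand, at 93.8, 35.1 and 65.3 TPM from 118, 29 and 52 counts. Neither overlaps an exon of Gch1. Whether the counting used the strand of the reads is unknown here.

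The stretch before the Gch1 start is shown as the regulatory sequence of the highest gene, from RefSeq (GRCm38.p6, chr14:47189414-47189663, minus strand, the 250 bases before the annotated start). Promoter entries matched 3 of the 7 genes: Gch1, Ass1 and Odc1. Capitals mark matches on either strand to the TATA box (TATAAA), the CCAAT box (CCAAT), the GC box (GGGCGG), the core of the cyclic AMP response element (TGACG) and the NF-kB motif, which were searched after the sequence had been seen and do not overlap here.
Gch1: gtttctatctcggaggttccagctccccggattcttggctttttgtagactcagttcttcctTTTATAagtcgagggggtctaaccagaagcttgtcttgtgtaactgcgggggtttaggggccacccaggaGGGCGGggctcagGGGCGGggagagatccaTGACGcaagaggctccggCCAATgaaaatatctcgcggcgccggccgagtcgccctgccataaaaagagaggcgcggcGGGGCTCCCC
There were 2 GC boxes and 1 match to each of the other 4. Among the 32851 promoters of the same length, a TATA box was present in 12.4%, CCAAT in 33.8%, a GC box in 32.7%, TGACG in 17.8% and the NF-kB motif in 7.25%. An E-box (CACGTG, in 6.02% of promoters) was not found in this window. These matches describe the letters only.

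The arginase genes were the lowest of the 7. Arg1 (ENSMUSG00000019987.9, chromosome 10, 24915221 to 24927484, minus strand), the cytosolic arginase of liver and of alternatively activated macrophages, stood at 0.110, 0.310 and 0.230 TPM, a mean of 0.217 ± 0.101 (SD, n = 3). That rested on 2, 5 and 3 counts, where 3 counts would be 0.169, 0.184 and 0.231 TPM, so Arg1 was at or near the limit that a count of 0 allows. The deposited credible intervals for Arg1, of unstated probability, reached up to 1.12, 1.37 and 1.33 TPM around posterior means of 0.530, 0.710 and 0.670. In the read-based tables Arg1 stood at 0.513 ± 0.370 TPM from 8, 20 and 5 counts.

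Arg2 (ENSMUSG00000021125.6, chromosome 12, 79130777 to 79156301, plus strand), the mitochondrial arginase, stood at 0.960, 0.510 and 1.02 TPM, a mean of 0.830 ± 0.279. It reached a TPM of 1 in 1 of 3 libraries, on 16.4, 10.8 and 20.0 counts, and in the read-based tables it passed in all of them, at 1.99, 1.15 and 1.47. Its last exon overlaps the oppositely transcribed gene Vti1b over 285 exon bases, the antisense gene Gm48780 overlaps 116 more, and Vti1b stood at 6.48 to 8.67 TPM, so the Arg2 value is uncertain. In TPM each Arg2 library lay above each Arg1 library. By the posterior mean TPM of the same tables Arg2 stood at 0.960, 0.530 and 1.00, so replicate 2 lay below Arg1 in replicates 2 and 3. The ratio of Arg2 to Arg1 in replicate 2 was 1.65, with a 95% Clopper-Pearson interval of 0.545 to 6.24 that covers counting error only, and the intervals in replicates 1 and 3 began at 1.95 and 1.31.

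Nos2 exceeded both arginase genes in every library. The ratio of Nos2 to Arg1 was 142, 15.0 and 27.0 in replicates 1, 2 and 3, with counting intervals of 38.1 to 1142, 6.46 to 47.2 and 9.13 to 131. These ratios rest on 2, 5 and 3 Arg1 counts. By posterior mean TPM Nos2 stood at 15.05, 4.88 and 6.09 and Arg1 at 0.530, 0.710 and 0.670. The ratios from the posterior means are smaller in each library, so the size of the gap depends on the estimate used. The ratio of Nos2 to Arg2 was 16.2, 9.14 and 6.09, with lower bounds of 10.2, 4.94 and 3.88. On the log2(TPM + 1) scale the within-library difference between Nos2 and Arg1 was 2.85 ± 0.93 (SD, n = 3) and that between Nos2 and Arg2 was 2.27 ± 0.70, both in 3 of 3 libraries. With a pseudocount of 0.1 they were 4.67 and 3.12, since the pseudocount is large beside the arginase levels. With posterior means they were 2.42 and 2.27.

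The genes that remake arginine stood at different levels. Asl (ENSMUSG00000025533.15, chromosome 5, 130011258 to 130029247, minus strand), argininosuccinate lyase, stood at 7.52, 10.6 and 9.90 TPM, a mean of 9.35 ± 1.63 (SD, n = 3), from 120, 231 and 200 counts. Ass1 (ENSMUSG00000076441.9, chromosome 2, 31470207 to 31520672, plus strand), argininosuccinate synthase, which makes the substrate of Asl, stood at 1.46, 1.66 and 1.57 TPM, a mean of 1.56 ± 0.10, from 25, 35.4 and 35.2 counts. The libraries of these genes did not overlap, and Ass1 lay below Asl by -2.00 ± 0.18 on the log2(TPM + 1) scale in 3 of 3 libraries, with a range of -2.49 to -1.68 over the alternatives.

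In the alignment-based tables Ass1 had the smallest coefficient of variation of the 7 genes, 6.41%, which was 10.2% on TMM-scaled and 11.6% on DESeq2-scaled counts. That rested on 25, 35.4 and 35.2 counts, too few to show a steady level. In the read-based tables Ass1 spread more widely, at 2.44, 3.06 and 1.86 TPM. Its coding transcript held 80.0% ± 9.06 of its TPM. Asl has 8 annotated transcripts, of which the 6 coding ones held 67.6% ± 9.70, the processed transcript Asl-204 19.7% ± 9.24 and the retained-intron transcript Asl-208 12.8% ± 2.98. The read-based tables gave 18.4 ± 4.32 TPM for Asl and 2.45 ± 0.598 for Ass1, 1.97 and 1.57 times the alignment-based means, with Ass1 again below Asl in each library.

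Odc1 (ENSMUSG00000011179.8, chromosome 12, 17544794 to 17551505, plus strand), ornithine decarboxylase, stood at 15.8, 13.0 and 25.7 TPM, a mean of 18.2 ± 6.66 (SD, n = 3), from 161, 232 and 402 counts. Its range lay below that of Gch1 and above that of Asl, and it overlapped that of Nos2. Little of the Odc1 TPM was coding. Odc1-201, its 1 coding transcript, stood at 1.24, 3.66 and 6.00 TPM, which was 7.83%, 28.2% and 23.4% of the gene's TPM. The 5 retained-intron transcripts together held 75.7%, 55.4% and 58.9%, and 2 transcripts annotated for nonsense-mediated decay held 16.4%, 16.3% and 17.8%. Whether the reads assigned to the retained-intron transcripts came from unspliced RNA of Odc1 was not tested.

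The coding share of Odc1 was lowest in replicate 1 in both kinds of table, at 9.51% in the read-based one against 30.3% and 25.2%. Odc1-206 and Odc1-203, retained-intron transcripts of 472 and 504 bases, stood at 3.95 ± 1.87 and 2.41 ± 0.908 TPM. By counts, which do not weigh short transcripts up, the coding transcript held 21.3%, 55.6% and 48.6% and the retained-intron transcripts 38.9%, 16.1% and 18.8%. Among the 7924 protein-coding genes that averaged 1 TPM or more and have several transcript types, the median coding share was 50.9%, and 10.6% of genes had a share as low as that of Odc1 and 38.1% as low as that of Gch1. For Nos2 95.7% of genes had a share at or below its alignment-based 98.3%, whereas its read-based coding share of TPM was 61.0% ± 2.22. By read-based counts the coding transcripts of Nos2 held 92.2%, 93.0% and 93.9%.

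**Figure D4:**
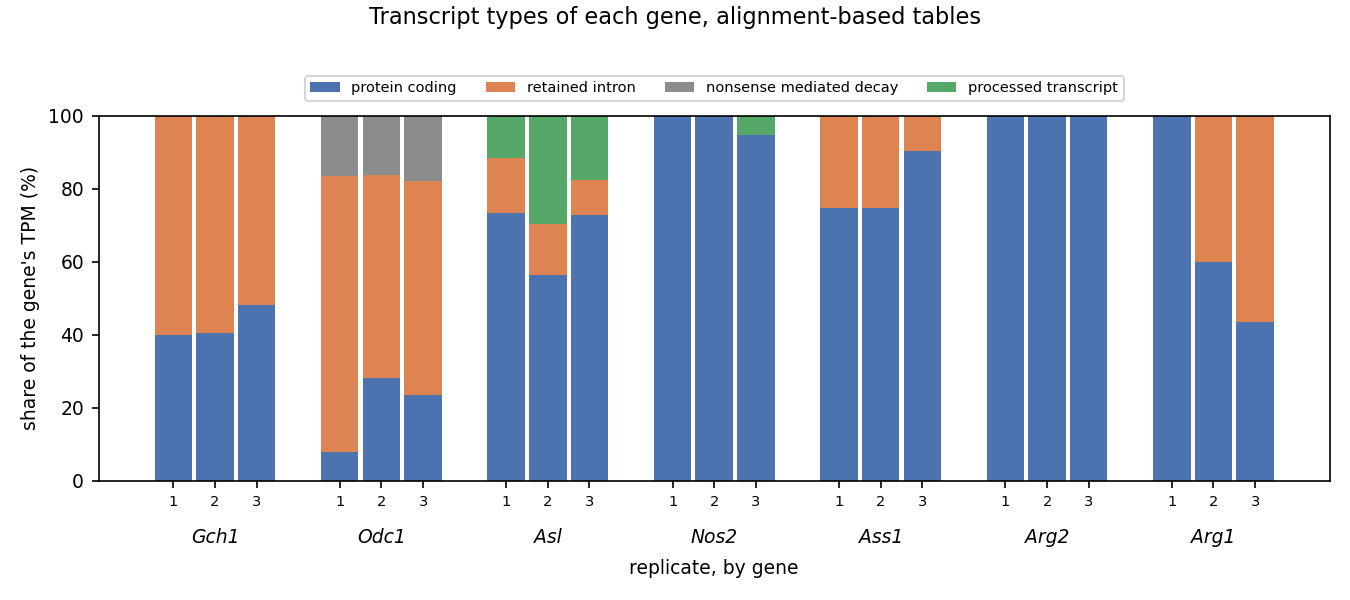
Share of each gene's TPM (%) by annotated transcript type in replicates 1, 2 and 3 of the alignment-based tables, genes ordered by level. Retained-intron transcripts take 51.9% to 60.2% of Gch1 and 55.4% to 75.7% of Odc1 but none of Nos2 or Arg2, for which none is annotated, and the Arg1 bars rest on 2 to 5 counts per library.

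Neighbours in the order of levels were compared by whether the ranges of their 3 libraries overlapped. Of the 6 neighbouring pairs, 5 were separate, and Asl and Nos2 overlapped, with Asl higher in 2 of 3 libraries. In the read-based tables and with coding transcripts alone 3 pairs were separate and the order was Gch1, Nos2, Asl, Odc1, Ass1, Arg2 and Arg1. Replicate 1 decided the place of Nos2 relative to Asl: without it all 6 pairs were separate with Asl above Nos2, and without replicate 2 or replicate 3 Nos2 stood above Asl.

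Gch1, which supplies the cofactor, stood above Nos2, and Odc1, which uses the product of arginase, above Arg2. Gch1 exceeded Nos2 by 3.04 ± 0.57 on the log2(TPM + 1) scale (SD, n = 3) and Odc1 exceeded Arg2 by 3.35 ± 0.33, each in 3 of 3 libraries. With coding transcripts alone the differences were 1.85 and 1.20, and Gch1 exceeded Nos2 by 1.89 in the read-based tables. Arg2 exceeded Arg1 by 0.58 ± 0.33 in 3 of 3 libraries, and by 1.56 with a pseudocount of 0.1. With posterior means the mean difference was 0.15, and Arg2 was the higher in 2 of 3 libraries (exact permutation p = 0.5). An exact two-sided sign-flip permutation test gave p = 0.25 for each of the 6 differences, 0.25 after Benjamini-Hochberg adjustment over the 6, which is the smallest p that 3 libraries allow.

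Of 48 other genes of arginine, nitric oxide and polyamine metabolism, 24 were detected, beside the 39.2% of protein-coding genes, with a median of 1.80 TPM. The counts by role below are to be read beside the same share. Arginine enters cells through cationic transporters. Of the 5 genes listed under arginine transport, 4 were detected, which does not measure arginine entry. Slc7a1, on that list, stood at 18.0 ± 3.94 TPM, of which coding transcripts made up 5.87 ± 1.85. Slc3a2, the heavy chain that several amino acid transporters share, stood highest at 93.6 ± 24.9 TPM and Slc7a6 lowest at 1.69 ± 0.401. Slc7a2, which encodes the inducible cationic transporter of macrophages and was chosen for mention after its values were seen, stood at 2.78, 0.850 and 1.81 TPM. It thus missed detection through replicate 2 alone, and it passed in every library of the read-based tables, at 4.36, 2.44 and 2.78 TPM.

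The other nitric oxide synthases were at the limit of counting. Nos3, the endothelial form, had 0 counts in each library and Nos1, the neuronal form, 1 count in 1 library, although Nos1 stood at 1.10 ± 0.386 TPM in the read-based tables. Of 7 further tetrahydrobiopterin genes, Pts, which encodes the enzyme after Gch1, stood at 17.1 ± 1.80 TPM and Pcbd1 at 2.02 ± 1.35, and these were the 2 detected. Coding transcripts made up 2.27 ± 0.472 TPM of Pts. Spr, sepiapterin reductase, which completes the cofactor, stood at 0.227 ± 0.104 TPM on 3 to 6 counts. Gchfr, whose product inhibits GTP cyclohydrolase 1, had 0 counts in each library.

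Polyamine genes included the highest of the 48. Sat1, the acetyltransferase that starts polyamine breakdown, stood at 515, 326 and 401 TPM, a mean of 414 ± 95.5, of which coding transcripts made up 51.9 ± 19.8. Srm, spermidine synthase, was the lowest polyamine enzyme at 0.397 ± 0.267 TPM on 2 to 7 counts. Of the 6 polyamine enzymes 5 were detected, where 39.2% of protein-coding genes were. Of the 5 genes that control ornithine decarboxylase, Azin1, the antizyme inhibitor, was highest at 44.7 ± 4.06 TPM and Oaz3 lowest at 0.270 ± 0.108 (3.07 ± 1.42 in the read-based tables), and 3 were detected. All 3 genes of hypusine formation, which uses spermidine to modify the translation factor eIF5A, were detected. They ranged from Dohh at 2.09 ± 0.887 to Dhps at 16.3 ± 1.04 TPM. With coding transcripts alone Eif5a had the highest mean of the 3, at 15.9 ± 3.36 TPM. Dhps then had the lowest, below Dohh at 1.88 ± 1.03 TPM.

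Oat, ornithine aminotransferase, had the highest mean of the 5 ornithine and proline genes at 3.31 ± 1.63 TPM, and 3 of them were detected. Aldh18a1 stood above it in replicate 1 (3.46 against 2.08 TPM) and Prodh in replicate 2 (3.60 against 2.69). In the read-based tables Prodh was highest at 17.6 ± 7.53, beside Oat at 7.77 ± 2.68. Pycr1 was lowest at 0.437 ± 0.0971, but it stood at 8.41 ± 1.29 in the read-based tables. Gatm, the first enzyme of creatine synthesis, stood at 5.98 ± 2.01 while Agmat had 0 counts in each library. Among regulators of nitric oxide synthases, Nosip had the highest mean, 5.05 ± 1.93 TPM, and Ddah1 the lowest, 0.0167, with 2 counts in 1 library. Nostrin, at 4.86 ± 0.804 TPM, stood above Nosip in replicates 1 and 3. With coding transcripts alone Nostrin was also the higher, at 4.67 ± 1.01 against 2.46 ± 1.01. Of the nitric oxide targets, Prkg1 was detected, at 18.4, 3.97 and 13.4 TPM, of which coding transcripts held 1.41 ± 0.795, whereas Gucy1a1 and Gucy1a2, subunits of soluble guanylate cyclase, had 0 counts in each library. Gucy1a2 stood at 1.40 ± 0.0994 TPM in the read-based tables. Of the urea cycle genes of liver, Otc, Cps1 and Nags had 0 counts in each library and Slc25a15 stood highest at 0.157 ± 0.0862 TPM. For the 8 genes at 0 counts, 3 counts would have been between 0.0314 TPM (Cps1, replicate 2) and 0.464 TPM (Gchfr, replicate 1).

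**Figure D5:**
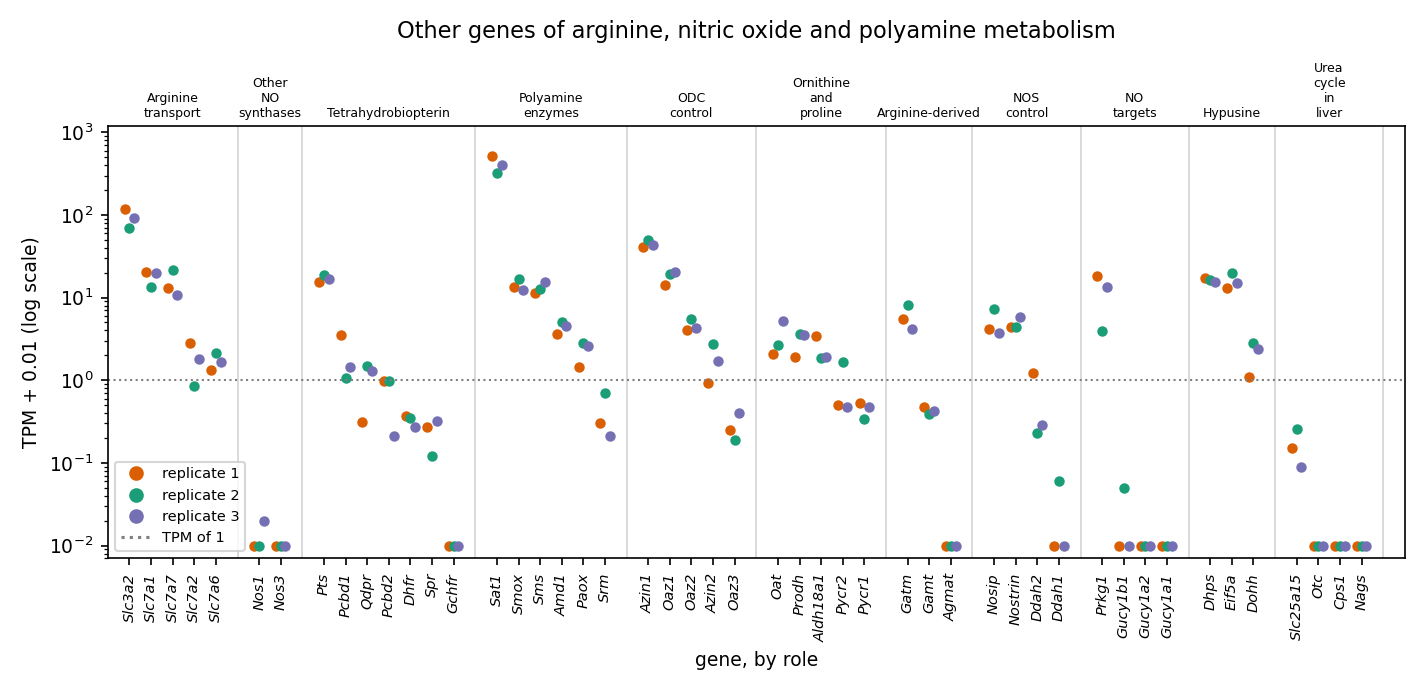
TPM + 0.01 (log axis) of the 48 other genes by role, with 1 point per library and a dotted line at a TPM of 1. Sat1 and Slc3a2 lie highest, and 8 genes lie at the lower edge of the plot with 0 counts in each library.

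Genes whose levels over the 3 libraries lay nearest to each detected gene were found by the Euclidean distance of log2(TPM + 1) among 9445 protein-coding genes. For Nos2 they were Tnfsf15 (16.3, 4.27 and 6.76 TPM; distance 0.16) and Olfr1417 (16.0, 4.89 and 5.36 TPM; 0.19), and 7 genes lay within 0.5. For Gch1 they were Baz1a and Il15, at 0.09 and 0.13 with 84 genes within 0.5, and for Odc1 they were Hsp90aa1 and Btg2, at 0.08 and 0.20 with 55. Asl (Selenot and Dpp9) and Ass1 (Fbxw10 and Il16) had 529 and 634 genes within that distance. With 3 libraries, a short distance describes similar levels in these libraries only.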

How the data were processed

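Chromatin RNA of 1 group of 3 libraries was analysed, with the groups and replicate numbers taken from the labels. Per the labels and deposited notes, the genome build was mm10 and the annotation GENCODE M21. The programs and the use of strand are not given in the sources used for this work. The authors deposited expected counts (estimated reads per gene or transcript, which need not be whole) and TPM values in alignment-based gene and transcript tables and in read-based transcript tables. The gene tables also hold posterior mean TPM with deposited interval bounds. Read-based TPM was summed per gene. Differences between genes were taken within libraries on log2(TPM + 1). TPM for 3 counts was computed from the effective lengths. The exact permutation test flips signs over libraries. No condition could be compared.

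Chi-square per degree of freedom between libraries was 36.0 to 71.7 over protein-coding genes, so no library was treated as a repeat deposit. TMM (edgeR 4.0.16) and size factors (DESeq2 1.42.0) scaled rounded expected counts in alternatives. Python 3.11.15 and scipy 1.17.1 were used, and the functions were tested on simulated data. The members and gene lists were chosen with earlier results of these data known. All 7 members are named. From the list of 48 other genes, the text names the highest and lowest of each role and those at 0 counts, as well as the 2 genes nearest to each detected member. Others were named after their values were seen. The labels name no molecular identifiers, so intervals and limits cover counting error only.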

Additional observations from a re-analysis of the deposited data

How the results depend on the processing

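The mean of each pair difference kept its sign under all 8 alternatives tried for it, although its test cannot pass with 3 libraries. The number of neighbouring pairs with separate ranges was 5, and it was 3 both in the read-based tables and with coding transcripts alone. Leaving out 1 library gave 4 to 6. The members detected numbered 4 to 6 and the pathway genes detected 18 to 30 over their 9 alternatives each. The share of all protein-coding genes detected, 39.2%, was computed in the main setting only. The alternative counts therefore have no such share to be set beside. The read-based coding share of TPM, an alternative chosen after the data were seen, was 47.6% for Gch1 (42.7% in the alignment-based tables) and 61.0% for Nos2 (98.3%). By read-based counts the coding share of Nos2 was 93.0%. The cause of these differences was not tested. Of 49 alternative member levels, 18 moved by more than 1 SD, 7 of them by the rescaling of TPM over protein-coding genes, which multiplies every level. No paired analysis was possible because there is 1 group. Depth limits Arg1, Arg2 and Ass1, which had 10, 47.1 and 95.6 counts in all.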

Other observations

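For Nos2, replicate 1 was 2.87 times the mean of replicates 2 and 3. Of 9450 protein-coding genes that averaged 1 TPM or more, 51 (0.540%), Nos2 included, had a ratio at least as large, where the median gene had 0.846. The list was not tested for any theme. Its 4 genes with the highest mean TPM, a rule set after the values were seen, were Cmpk2 at 482, 93.7 and 159 TPM, the complement gene C3 at 348, 102 and 125, Ms4a4c at 266, 45.0 and 53.7 and the interleukin-15 receptor gene Il15ra at 216, 69.7 and 55.8. Among genes above 0 in every library, the ratio was largest for Gbp10 (23.4), Hmgn3 (6.07) and Hddc3 (5.79). Among the other detected members the ratio was 1.31 for Gch1, 0.904 for Ass1, 0.820 for Odc1 and 0.733 for Asl. The labels give replicate 1 the largest starting amount, and its part in these values was not tested.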
